A study of Zea mays with 16 samples.

Results

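Among 42034 probes on the maize arrays, 136 were raised in anthers of ms23 mutants and not in anthers of ms32 mutants, each mutant being set against its own fertile siblings. A probe was taken when its log2 ratio of mutant over fertile sibling was at least 1 on both arrays of the ms23 pair and below 0.5 on both arrays of the ms32 pair. The mutant channel also had to be well above background on all 4 arrays, with no outlier mark on the spot. These ratios came from the signals processed by the scanner software. Of the 30545 probes that met the conditions on marks and background, 687 reached 1 on both ms23 arrays; 136 of these were members, 86 reached 1 on both ms32 arrays as well, and 465 met neither description.

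The study measured total RNA from whole maize anthers of 1.5 mm on 8 two-colour Agilent arrays, which held 16 samples on 2 slides. There were 6 samples of ms23 mutants, 6 of ms32 mutants, 2 of fertile siblings from the ms23 family and 2 of fertile siblings from the ms32 family; neither the alleles nor the inbred backgrounds are given in the sources used here. Slide 1 carried ms23 mutants against ms32 mutants on all 4 arrays, as replicates 1 and 2 with the dyes swapped within each replicate number. Slide 2 carried the ms32 mutant against its sibling on arrays 1 and 2 and the ms23 mutant against its sibling on arrays 3 and 4, again with swapped dyes, and all of its mutant samples were replicate 3. By the titles, each mutant thus had 3 replicate numbers and each family a single sibling replicate number, every one of them labelled in both dyes, while the series text speaks of 2 biological replicates. Samples of a number may share RNA, so counts over samples below are counts of labelled samples and not of independent plants.

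MS23 and MS32 are basic helix-loop-helix transcription factors that are required for the tapetum, the innermost layer of the anther wall, which feeds the developing pollen. In either mutant the precursors of the tapetum divide again and do not mature, so that no functional pollen forms. A whole anther also contains the outer wall layers, connective and vascular tissue, and the meiotic cells. In RNA from whole anthers, a change in the number of cells of a type and a change in RNA per cell cannot be told apart.

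The members had 136 distinct target names. Of these, 102 were tentative consensus sequences assembled from expressed sequence tags, 32 were single expressed sequence tags and 2 were NP names, given to annotated coding sequences. Among all probes that met the conditions on marks and background, 72.6% were tentative consensus sequences, against 75% of the members. None of the 136 target names matched the reference gene table used here, and the array files give no protein function or genome position for them. The members are therefore described by target name and by their values, and no function is given to any of them. No member could be placed on the lists of tapetum, meiosis, cell wall, lipid, transcription factor or other genes prepared for this comparison, because the names could not be matched.

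All 16 samples gave usable signal. Between 81.2% and 94.8% of the probes were well above background in a sample, the median spot intensity lay between 94 and 232.25, and no spot was saturated. The probes for MS23 and MS32 could not be named, so the mutated genes themselves were not checked here. Of 17 probes with names of meiosis or cohesin genes, 14 were well above background in all 16 samples, among them all 3 for AM1, a gene required for entry into meiosis; the other 3, all named ZmRAD21, were so in 2, 12 and 14 samples. Probes for tapetum and leaf markers could not be named.

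The members were selected on their slide 2 ratios, which are given as a description. On slide 2 the mean ms23 ratio of a member ran from 1.04 to 4.39 on the log2 scale, with a median of 1.48. The middle part of the set was narrow, with quartiles of 1.29 and 1.77, and 70 members had a mean under 1.5. Array 3, with the mutant in Cy5, gave a median of 1.46 and array 4, with the mutant in Cy3, gave 1.47. Both arrays had to reach 1 for a probe to be a member, so these medians cannot tell whether the dyes differed. Within a member the orientations differed by a median of 0.38; 84 members had both arrays within 0.5 of each other, and 12 had them more than 1 apart. The ratio was at least 4-fold on both ms23 arrays for 12 members. Members and other probes lay close together around the threshold. TC312985 was just inside with 1.07 and 1.0005 on the ms23 arrays and -0.33 and 0.20 on the ms32 arrays. DR820223 was also just inside, with 1.002 and 1.89 for ms23 and -0.07 and 0.31 for ms32. Just outside lay TC305043, whose ms23 ratios were 1.09 and 0.9999, and CA401064, with 1.40 and 1.41 for ms23 but 0.501 on ms32 array 1.

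**Figure D1:**
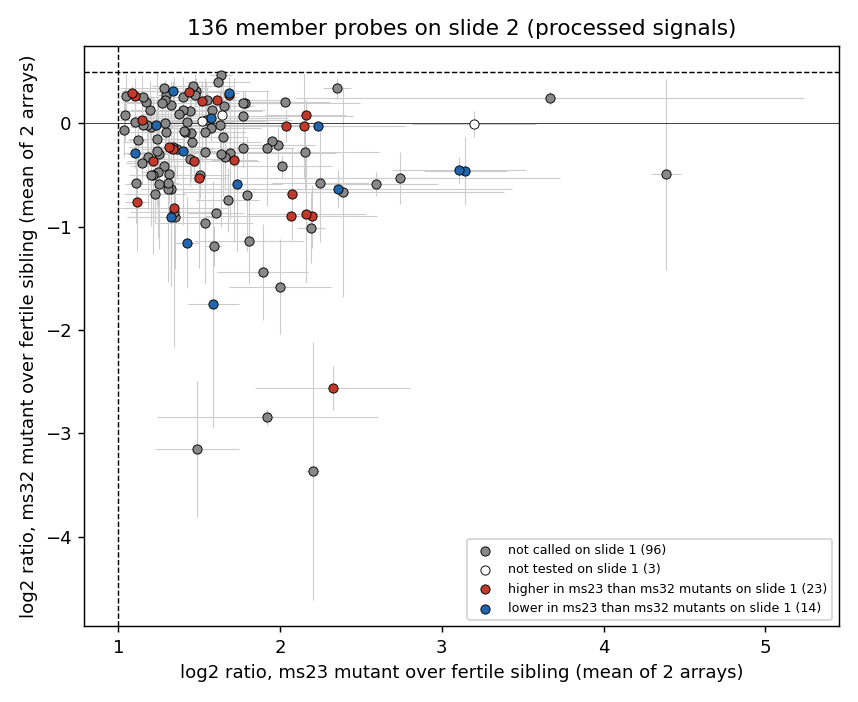
Mean log2 ratio of ms23 mutant over fertile sibling (horizontal) and of ms32 mutant over fertile sibling (vertical) for the 136 members on slide 2, with grey bars spanning the 2 arrays of each pair and colours giving the call of the separate slide 1 comparison. The ms23 means run from 1.04 to 4.39 and the ms32 means from -3.36 to 0.47, and the colours are mixed along both axes.

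The highest mean ms23 ratio belonged to TC293467, with 4.29 and 4.48 on the 2 ms23 arrays (20.9-fold) and 0.43 and -1.42 on the ms32 arrays. After background correction with an offset and loess normalisation, TC293467 had smaller ms23 ratios of 1.03 and 0.82. Its normalised log2 level was 6.18 and 6.21 in the ms23 siblings and 7.005, 7.48 and 8.47 as the lowest, median and highest of the 6 ms23 mutant samples. The ms32 siblings stood at 10.51 and 11.28, and the ms32 mutants ran from 9.04 through a median of 9.70 to 10.83. Every ms23 mutant sample of TC293467 was above both ms23 siblings, and every ms32 sample, mutant or fertile, was above every ms23 sample.

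TC302223 had slide 2 ratios of 3.58 and 2.81 for ms23 and of 0.12 and -0.13 for ms32. The ms23 siblings of TC302223 had normalised log2 levels of 12.54 and 13.68, and the 6 ms23 mutants had 13.34, 15.56 and 16.91 as lowest, median and highest. In the ms32 family the siblings had 12.18 and 11.95 and the mutants 11.33, 11.97 and 13.25. The lowest ms23 mutant lay below the higher of its siblings, so these groups overlapped, whereas the lowest ms23 mutant was above every ms32 sample. A spot of TC302223 carried an outlier mark on slide 1 and the probe was not tested there; its slide 1 log2 ratios of ms23 over ms32 mutant were 3.15, 1.24, 2.44 and 3.67.

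BG837987 had ms23 ratios of 3.40 and 2.89 and ms32 ratios of -0.79 and -0.13. Its levels were 6.45 and 6.64 in the ms23 siblings, 7.10, 7.98 and 8.96 over the ms23 mutants, 9.18 and 9.79 in the ms32 siblings, and 8.18, 9.05 and 9.50 over the ms32 mutants. All ms23 mutants of BG837987 were above their siblings, and both ms32 siblings were above all of them. TC291127 was less even, with ms23 ratios of 5.24 and 2.10, ms32 ratios of 0.32 and 0.18, ms23 sibling levels of 6.61 and 9.03, and ms23 mutant levels of 6.56, 9.84 and 10.89. One ms23 mutant sample of TC291127 was below both siblings, and the siblings differed from each other.

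The 8 highest mean ms23 ratios included 4 more targets. TC283451 had ms23 ratios of 3.52 and 2.69, but its ms23 sibling levels of 6.09 and 6.20 lay within its ms23 mutant range of 6.07 to 6.85. TC294933 had 3.39 and 1.39 for ms23 and 0.36 and -1.68 for ms32; its ms23 siblings stood at 7.62 and 8.76 and its ms23 mutants between 9.88 and 11.32. All 6 ms23 mutants of TC294933 were thus more than 1 above both siblings. CO441076 had 2.22 and 2.97 with ms23 siblings at 6.42 and 6.36 and ms23 mutants between 6.48 and 7.21, and TC300040 had 3.73 and 1.75. The size of the ratios differed between processings. After background correction with an offset and loess normalisation, the median ms23 ratio of the 136 members was 0.87 in place of 1.48; 135 members were above 0 on both ms23 arrays and 41 reached 1 on both. TC293467 then gave a mean of 0.93 and TC302223 a mean of 3.17.

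**Figure D2:**
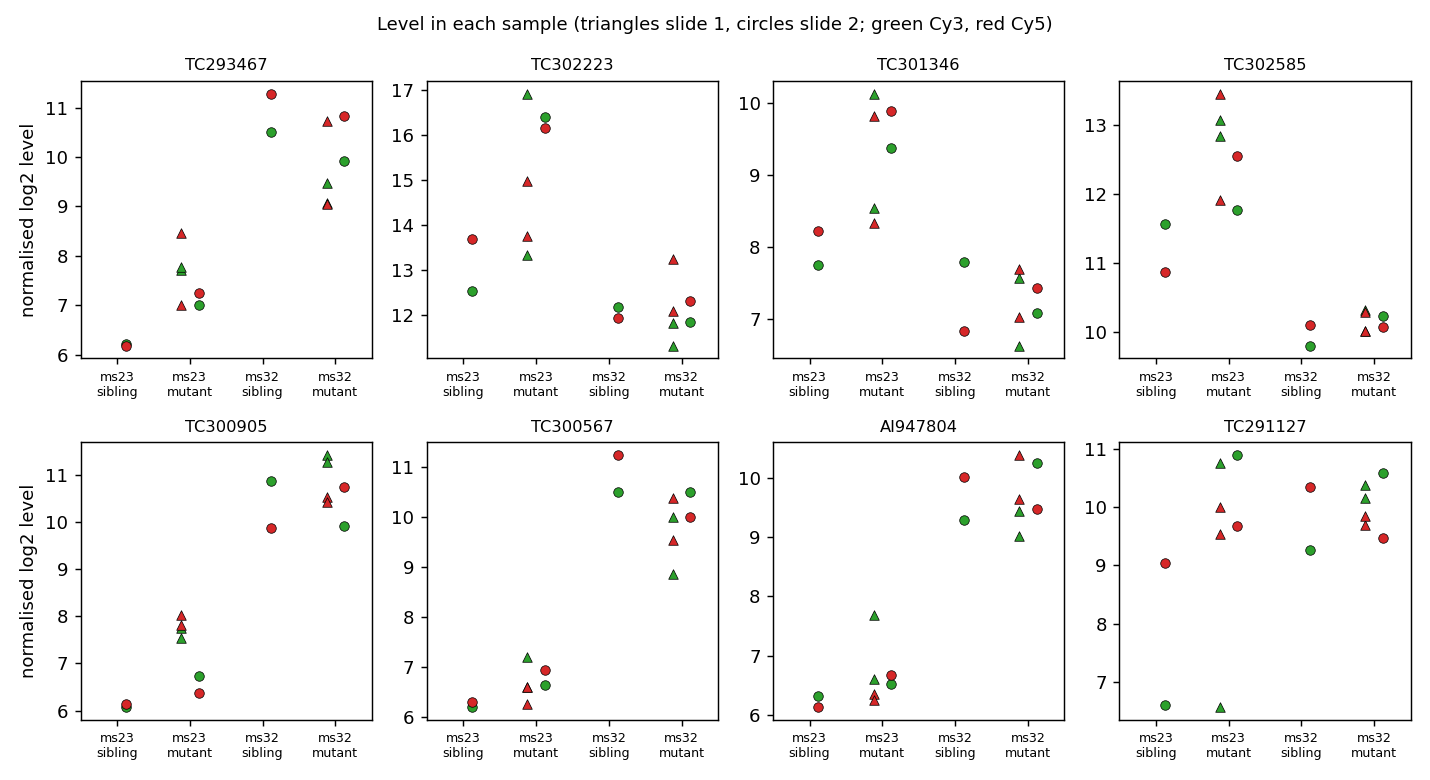
Normalised log2 level (vertical) in each of the 16 samples for selected members, one panel per target, grouped as ms23 siblings (2 samples of 1 replicate number), ms23 mutants (6 samples of 3 numbers), ms32 siblings (2 of 1) and ms32 mutants (6 of 3); triangles are slide 1, circles slide 2, green Cy3 and red Cy5. TC302585 and TC302223 are highest in ms23 mutants, whereas TC293467 and TC300905 are highest in the ms32 family.

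The ms23 siblings had weak signal for part of the set. Both ms23 siblings were well above background for 115 members, 1 of them for 15 members and neither for 6. For these 6 the level in the siblings was only a bound: the ms23 mutants on slide 2 were at least 1.16-fold higher for TC294874, at least 1.15-fold for CO463450, at least 1.12-fold for TC284108, at least 1.11-fold for TC300803 and at least 1.096-fold for CK347995, and CD956301 gave no bound above 1. Both ms32 siblings were well above background for 134 members. In all, 107 of the 136 members were well above background in all 16 samples.

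The choice of members required ms32 ratios below 0.5, so the ms32 values below are a description. Shares over all probes were not obtained for these counts. The mean ms32 ratio ran from -3.36 to 0.47 with a median of -0.23, where the upper end was set by the choice of members. The ratio was below 0 on both ms32 arrays for 55 members, above 0 on both for 32, and of mixed sign for 49. Of the 136 members, 5 were at or below -1 on both ms32 arrays; these were picked out after their values were seen. TC290574 had 2.80 and 1.85 for ms23 and -2.34 and -2.78 for ms32. TC303088 had 1.24 and 2.61 against -2.92 and -2.76. Its levels were 7.22 and 7.77 in the ms23 siblings and 7.58, 8.70 and 9.79 over the ms23 mutants, but 10.10 and 11.46 in the ms32 siblings and 6.94, 7.83 and 8.91 over the ms32 mutants. Fertile siblings of the ms32 family were thus the highest samples for TC303088, and the mutants of both families overlapped. CF015569 had 1.74 and 1.23 against -2.50 and -3.81, TC297381 had 2.24 and 2.16 against -4.61 and -2.11, and TC299471 had 2.31 and 1.68 against -2.04 and -1.12. By loess ratios TC297381 had 0.39 and 0.74 against -1.66 and -0.45, and TC299471 had 0.54 and 0.45 against -1.36 and -0.18. TC290574 then had 1.72 and 1.16 against -1.24 and -0.998, and TC303088 had 0.91 and 1.65 against -2.56 and -2.55. TC297381 was well above background in 1 of 2 ms23 siblings and 4 of 6 ms32 mutants.

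Slide 1 set the mutants directly against each other in samples that had no part in choosing the members, and asked whether the transcripts raised in ms23 mutants were also more abundant there than in ms32 mutants. The members went both ways. Of 133 members tested, 23 (17.3%) were higher in ms23 mutants, where 5.58% of all 38609 tested probes were; 14 (10.53%) were lower, where 5.98% of all tested probes were. Calls in either direction numbered 37 (27.8%), with 11.6% over all tested probes, by limma's moderated test with Benjamini-Hochberg adjustment over all tested probes at 0.05. The other 96 tested members were not called, and 3 members (TC302223, TC283673 and TC288595) were not tested because of a marked spot. The direct log2 ratio of ms23 over ms32 mutant had a median of 0.06 over the members, with quartiles of -0.32 and 0.66, beside a median of 0.01 over all tested probes. The size of the ratio, whatever its sign, had a median of 0.517 for members and 0.187 for all tested probes; 22 members reached 1 and 11 reached -1. Transcripts raised in both mutants by the same thresholds had 9 higher and 12 lower calls among 85 tested (24.7%). Their direct ratios had a median of 0.02 and a median size of 0.486. The difference between members and these transcripts was not tested. Members had to be well above background in the mutant channels that chose them, but all tested probes included dimmer ones. Members and all tested probes were thus unlike sets. Among probes well above background in every slide 1 sample of a mutant group, 5586 of 33073 were called in either direction. Of 129 members there, 28 were higher and 17 lower. The share over probes meeting the members' own conditions was not obtained.

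The 2 replicate averages behind the direct test gave the same sign for 109 of 133 members and differed by a median of 0.276. Across members they correlated at 0.853, a description in which the points share arrays and labelling. The ratio was above 0 on all 4 arrays for 51 members and below 0 on all 4 for 32. With median centring in place of loess the calls were 33 higher and 34 lower, and with added scaling between arrays 21 higher and 8 lower. Calls over all 38609 tested probes were 4462 in the main test, 10217 with median centring and 4413 with scaling. In fits of 3 arrays with a dye term, the member counts were 8 higher and 8 lower without slide 1 array 1 and 23 and 10 without array 2. They were 9 and 5 without array 3 and 9 and 12 without array 4. Over all tested probes these fits gave 2097, 2857, 1764 and 1779 calls without arrays 1, 2, 3 and 4. The authors' deposited table, with 50 added to each value, gave no call in either direction, among members or over all tested probes. There, 60 of 133 members and 9894 of all 38609 tested probes had an unadjusted p under 0.05 by the same limma test. Of the 8 highest and 5 lowest called members named below, DR794085, TC315482, TC300905 and AI947804 were called in every test but that of the deposited table, and each of the other 9 also lost its call without at least 1 array. The ratio also contains any difference between the family backgrounds of the mutants.

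**Figure D3:**
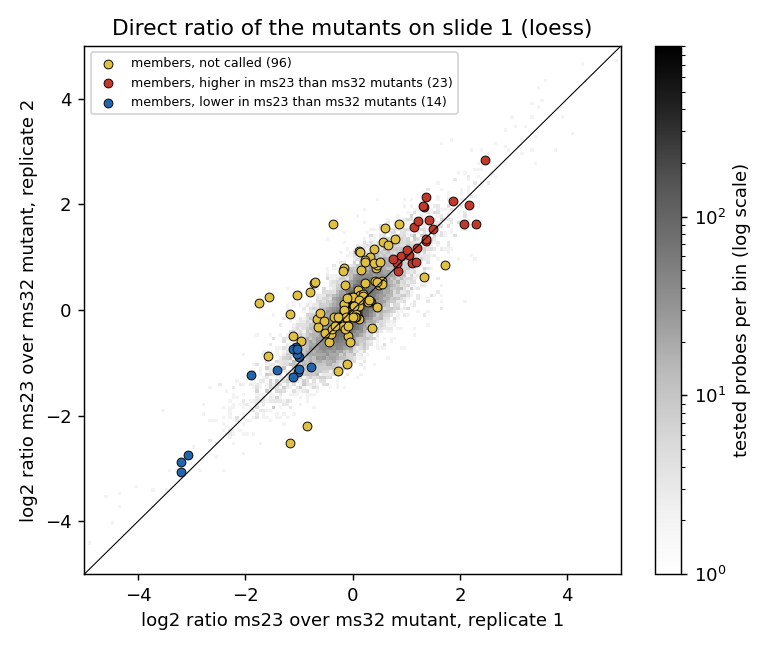
Direct log2 ratio of ms23 over ms32 mutant on slide 1 in replicate 1 (horizontal) and replicate 2 (vertical), with all 38609 tested probes as a grey density and the 133 tested members as points coloured by call. The 23 members called higher lie in the upper right and the 14 called lower in the lower left, and most of the other 96 lie around 0.

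Among members higher in ms23 mutants, TC302585 had the largest direct ratio. Its values on the 4 arrays were 1.89, 3.05, 3.13 and 2.54, giving 2.66 (SE 0.133, n = 2 replicate averages, limma adjusted p = 0.0112). Its slide 2 ratios were modest, at 1.14 and 1.06 for ms23 and 0.39 and 0.14 for ms32. The ms23 siblings stood at 10.87 and 11.57, the ms23 mutants at 11.77, 12.69 and 13.45, the ms32 siblings at 9.81 and 10.10, and the ms32 mutants at 10.01, 10.16 and 10.32. No group pair of ms23 and ms32 samples overlapped for TC302585, and the fertile siblings of the ms23 family were already above those of the ms32 family. TC302585 was not called without array 2 (limma adjusted p = 0.0557) or array 4 (0.0601), or at a preset correlation of 0.5 between arrays of a replicate number (adjusted p = 0.0546).

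DR794085 had slide 1 ratios of 1.47, 2.88, 1.21 and 2.76, giving 2.08 (SE 0.101, n = 2 replicate averages, limma adjusted p = 0.0109). The arrays of one dye orientation exceeded those of the other for DR794085, a difference that cancels in each replicate average. Levels of DR794085 were 8.99 and 9.57 in the ms23 siblings, 9.46, 10.43 and 11.17 over the ms23 mutants, 7.96 and 8.32 in the ms32 siblings, and 7.78, 8.03 and 8.56 over the ms32 mutants. TC301346 had slide 1 ratios of 2.25, 1.51, 1.71 and 2.44, giving 1.98 (SE 0.101, limma adjusted p = 0.0114), with levels of 7.75 and 8.22 in the ms23 siblings and 8.33, 9.60 and 10.14 over the ms23 mutants. For TC301346 every ms23 mutant was above both ms23 siblings and above every ms32 sample, where the siblings reached 7.79 and the mutants 7.70. TC301346 lost its call without array 1 (limma adjusted p = 0.0577) or array 3 (0.0522).

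TC315482 had a direct ratio of 1.86 (SE 0.152, limma adjusted p = 0.0203); its ms23 mutants ran from 10.34 to 11.40, above its ms23 siblings at 9.26 and 9.69, its ms32 siblings at 8.85 and 8.98, and its ms32 mutants between 8.54 and 9.51. TC290574, one of the 5 members lower in ms32 mutants than in their siblings on slide 2, had slide 1 ratios of 1.13, 1.60, 1.60 and 2.69 and a direct ratio of 1.76 (SE 0.232, limma adjusted p = 0.0400). Its siblings of the families were close, at 7.0004 and 7.22 for ms23 and 7.34 and 7.86 for ms32, while the ms23 mutants ran from 7.77 to 9.45 and the ms32 mutants from 6.34 to 6.76. The mutants of TC290574 thus stood on either side of their own siblings, apart from the overlap of the lowest ms23 mutant with the ms32 siblings, and TC290574 was not called without array 1 (limma adjusted p = 0.0670), array 3 (0.0880) or array 4 (0.0506). TC311712, TC291934 and TC312186 completed the 8 highest called direct ratios, at 1.96, 1.64 and 1.64. The other 4 members of the opposite pattern were not called on slide 1, with direct ratios of 0.78 for TC303088, 0.25 for TC297381, -0.17 for CF015569 and -0.52 for TC299471.

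The lowest direct ratio was that of TC300905, with -3.40, -2.99, -3.45 and -2.68 on the 4 arrays, giving -3.13 (SE 0.0937, n = 2 replicate averages, limma adjusted p = 0.00748). On slide 2 TC300905 had ms23 ratios of 2.31 and 2.16 and ms32 ratios of -0.01 and -0.03. Its levels were 6.07 and 6.15 in the ms23 siblings, of which 1 was well above background, and 6.38, 7.64 and 8.02 over the ms23 mutants. They were 9.87 and 10.86 in the ms32 siblings and 9.92, 10.63 and 11.41 over the ms32 mutants. The ms23 mutants of TC300905 were above their siblings, and both groups were below every sample of the ms32 family.

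In TC300567 and AI947804, too, all samples of the ms23 family were below all samples of the ms32 family. TC300567 had slide 1 ratios of -2.60, -3.78, -3.40 and -2.35, giving -3.03 (SE 0.123, limma adjusted p = 0.00905), and levels of 6.20 and 6.30 in the ms23 siblings, 6.26 to 7.21 over the ms23 mutants, 10.51 and 11.25 in the ms32 siblings, and 8.86 to 10.498 over the ms32 mutants. AI947804 had slide 1 ratios of -3.08, -3.04, -2.76 and -2.70, giving -2.90 (SE 0.124, limma adjusted p = 0.00927), with ms23 siblings at 6.13 and 6.31, ms23 mutants at 6.25 to 7.68, ms32 siblings at 9.29 and 10.004, and ms32 mutants at 9.02 to 10.38. In TC300567 and AI947804 the lowest ms23 mutant lay between its siblings. Without array 3 the call of TC300567 was lost (limma adjusted p = 0.0580). TC286303 had ms23 siblings at 8.86 and 9.36 and ms23 mutants at 9.998, 10.28 and 10.64, without overlap, and its ms32 siblings at 10.85 and 11.89 and ms32 mutants at 10.80, 11.53 and 12.06 were all higher. Its direct ratio was -1.19 (SE 0.0978, limma adjusted p = 0.0205; 0.0548 without array 4), and that of CO459841, the fourth lowest among those of 1 sign on all arrays, was -1.56 (SE 0.199, limma adjusted p = 0.0382; 0.127 without array 1 and 0.160 without array 3).

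The fertile siblings also differed between the families. Over all 136 members, both ms32 sibling samples were above both ms23 sibling samples for 84 (61.8%), with 24% over the 30545 probes that met the conditions on marks and background, and both were below for 15 (11.03%), with 23.6%. By call on slide 1, both ms32 sibling samples were above for 14 of the 14 lower members, 6 of the 23 higher members and 63 of the 96 not called. The difference, ms32 minus ms23 siblings in normalised log2 level, had a median of 2.32 for the lower members, from 0.84 to 4.63. It had a median of -0.08 for the higher members, from -1.45 to 1.22, and of 0.40 for those not called. Of the 86 transcripts raised in both mutants, 18 had both ms32 siblings above. The siblings of both families were part of the ratios that chose the members, so these counts are a description. A low level in the ms23 siblings or a high level in the ms32 siblings favoured the choice of a probe. The part of the sibling differences in the slide 1 calls was not tested.

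**Figure D4:**
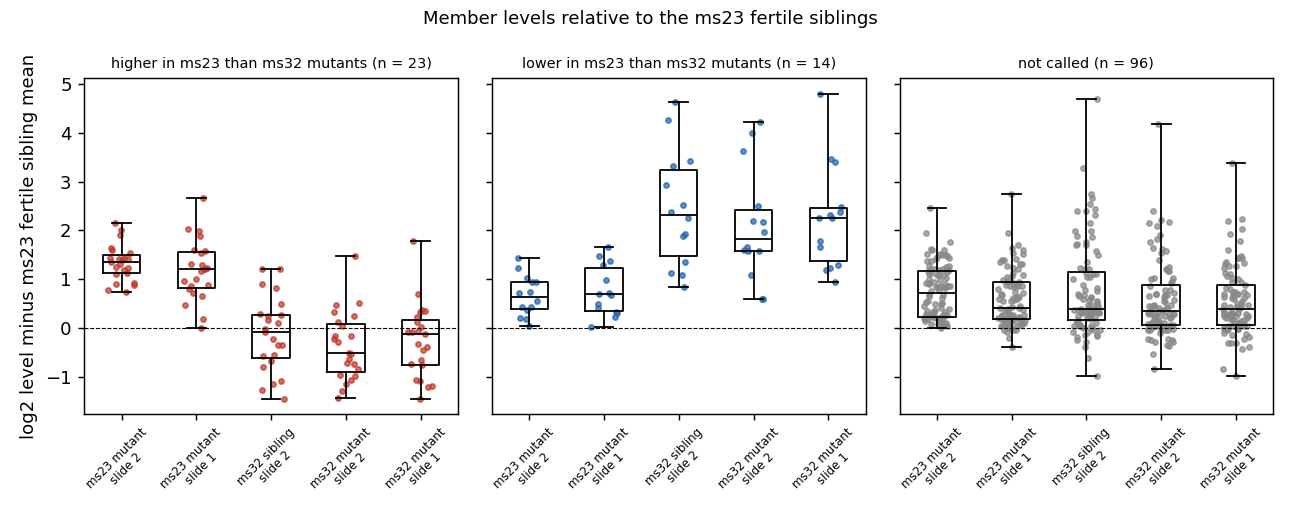
Normalised log2 level of each member minus the mean of its ms23 fertile siblings (vertical), for ms23 mutants, ms32 siblings and ms32 mutants by slide, in boxes of the quartiles with whiskers to the lowest and highest member, in panels for members called higher (n = 23), called lower (n = 14) and not called (n = 96) on slide 1. In the panel of the 14 called lower, the ms32 siblings stand above the ms23 siblings by a median of 2.32, and in that of the 23 called higher they stand near 0, at -0.08.

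The slide 2 mutants were never on the same array as each other, but their normalised levels could be set side by side. Of the 37 members called on slide 1, 36 had the same sign of the difference between ms23 and ms32 mutants on slide 2: 22 of the 23 called higher, with a median difference of 1.75, and 14 of the 14 called lower, with a median of -0.98. Over all 133 tested members the sign was shared by 105. Replicate 3 of the mutants thus had the same order as replicates 1 and 2 for nearly all called members. The slide 2 mutant channels were also part of the choice of members, which favoured a higher level in ms23 mutants. The same share over all tested probes was not obtained, so these counts do not show a trait of the members.

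The slide 1 mutants were other samples than those that chose the members, while the only fertile siblings were on slide 2. The mean level of the 4 slide 1 ms23 mutants was above the mean of the ms23 siblings for 129 of 136 members, by a median of 0.65, beside 0.87 for the slide 2 mutants and 0.00 for all probes that met the conditions on marks and background. All 4 slide 1 ms23 mutants were above both siblings for 58 members (42.6%), with 9.25% over those probes. By call on slide 1, these were 16 of the 23 higher members, 9 of the 14 lower members and 31 of the 96 not called. In the ms32 family, all 4 slide 1 mutants were above both siblings for 4 members (2.94%), with 7.38% over those probes, and below both for 18 (13.2%), with 10.4%; the median difference was -0.10. Slide and group cannot be told apart in these counts, and they share the sibling samples with the choice of members.

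For 8 of the 136 targets the array held another probe, and in none of them was the other probe a member. Of these 8 other probes, 7 were under 1 on both ms23 arrays, and 4 were above 0 on both. CO459841 came closest, with 1.09 and 1.11 for the member probe and 0.65 and 0.90 for the other. TC303115 had 1.19 and 1.60 against 0.78 and 3.40. TC286303 had 1.23 and 1.24 against 0.73 and 0.19, and TC300803 had 1.18 and 1.06 against 0.41 and 0.38. For these 4 targets both probes were above 0 on both arrays, at different sizes.

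In the remaining 4 targets the other probe was below 0 on at least 1 of the ms23 arrays. TC283451 had 3.52 and 2.69 for the member probe against 0.28 and -0.16. BM080708 had 1.67 and 1.70 against -0.38 and -0.09, with the other probe well above background in 9 of 16 samples. TC301942 had 1.50 and 1.35 against -0.48 and 0.06. The widest gap was in TC301984, with 1.90 and 1.26 against -1.71 and -3.84, where the other probe was well above background in 10 of 16 samples. On slide 1, TC303115 was lower in ms23 mutants by both probes, at -1.09 for the member probe (limma adjusted p = 0.0225) and -0.67 for the other (limma adjusted p = 0.0411). TC301942, called lower by its member probe at -0.89 (limma adjusted p = 0.0417), had -0.46 by its other probe. CO459841, TC286303 and TC283451, also called lower by their member probes, had direct ratios of 0.12, 0.24 and 0.12 by their other probes, and BM080708, called higher by its member probe at 0.79, had 0.08. A target name shared by probes does not show that they measure the same transcript, and the probe sequences were not used here.

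**Figure D5:**
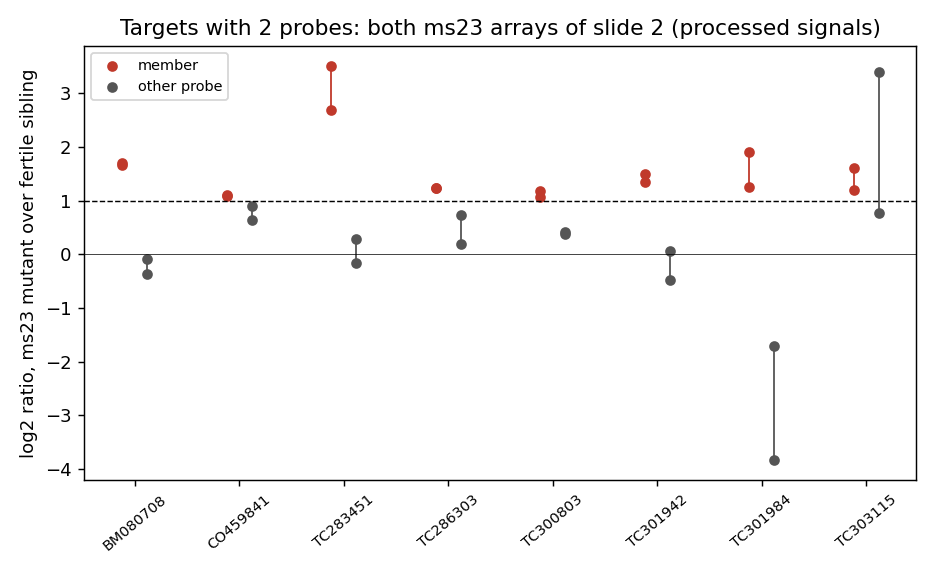
Log2 ratio of ms23 mutant over fertile sibling (vertical) on both ms23 arrays of slide 2 for the 8 targets that have a member probe and another probe, member probes in red and other probes in grey with a line joining the arrays, and the dashed line at the threshold of 1. All member probes are at or above 1, while the other probes run from -3.84 to 3.40.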

How the data were processed

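Total RNA of 16 samples was hybridised in pairs to 8 arrays. The deposited scanner files give linear intensity values of spot and local background, made with Feature Extraction 10.5.1.1 on array design 016047, per the file headers. They also give the software's own background-subtracted intensity and its flags for outlying, saturated or dim spots. The authors also deposited a table of processed intensity values; of tools, limma and Agilent's software appear in the submitters' processing notes. How that table was centred, the genome build and the probe annotation are not stated by any source used here.

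Members were found from log2 ratios of the scanner software's processed intensity values, not from the authors' table. For the direct test, median intensities were corrected by normexp with an offset of 50 and normalised by loess within arrays (limma 3.58.1, R 4.3.3), and control spots (1417) and marked spots were left out. A probe entered the test if at least 50% of the slide 1 samples of one mutant were well above background, and 38609 did. A marked spot on slide 1 excluded 758 probes. Dye-swapped arrays of a replicate number were averaged, which left 2 replicate averages, 1 residual and 2.26 prior degrees of freedom, and moderated p-values were adjusted by the Benjamini-Hochberg method at 0.05. The number of arrays limits the precision. Titles give dye-swapped arrays one replicate number, so p-values may measure technical spread in part; samples paired by array are inherent in the ratios. Levels per channel were scaled by Aquantile in limma.

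Members were named by a rule: the 8 with the highest mean ms23 ratio, the 8 highest and 5 lowest called direct ratios of 1 sign on all 4 arrays, those nearest the threshold, those with a gene symbol and those on the prepared lists; the last groups were empty. The members and lists were chosen with earlier results of these data known. Alternatives covered the normalisation, background offset, filters, blocks, left-out arrays and thresholds.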

Additional observations from a re-analysis of the deposited data

Results flagged for a closer look

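In 46 groups of 6 samples examined, 3 held a sample far from the others; chance alone marks about 1 group in 20. For TC291127, the ms23 mutant sample of replicate 1 in Cy3 (slide 1, array 2) had a normalised log2 level of 6.56, while the nearest other ms23 mutant had 9.53. For AI947804, the ms23 mutant sample of replicate 2 in Cy3 (slide 1, array 4) stood at 7.68, with the next at 6.67. For CO441076, the ms32 mutant sample of replicate 1 in Cy3 (slide 1, array 1) stood at 6.53, with the next at 6.22.

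By processed signals, the mutants moved in opposite directions from their siblings for 5 members, which were at or above 1 on both ms23 arrays and at or below -1 on both ms32 arrays: TC290574, TC303088, CF015569, TC297381 and TC299471. By loess ratios, TC297381 and TC299471 did not reach these limits on both arrays of either pair. TC290574 fell just short of the limit on ms32 array 2, at -0.998, and TC303088 fell short on ms23 array 3, at 0.91. The loess ratios of CF015569 are not given here. The difference between the mutant effects was not tested for them.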

How the results depend on the processing

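All 37 called members kept the sign of their direct ratio under all 18 alternatives. Alternatives that kept all 4 slide 1 arrays and changed only the model, block or filter gave the same ratio as the main test. The sign could not turn in those, and the other alternatives drew on the same arrays, so the shared sign is no separate evidence. The main counts of 23 higher and 14 lower became 26 and 15 both with 4 independent arrays and with the replicate block, whose correlation, estimated on 8 arrays, was -0.271, so that 0 was used. A preset block correlation of 0.5, chosen after seeing the data, gave 7 and 8. The 8-array model gave 36 and 19, median centring 33 and 34, added scaling 21 and 8, an offset of 10 gave 41 and 23, processed signals 33 and 25, and an intensity trend with robust variances 38 and 21. The authors' deposited table, with 50 added to each value, gave 0 and 0. Leaving out 1 array gave 8 to 23 higher and 5 to 12 lower, and a median direct ratio between 0.018 and 0.17; it was 0.19 without replicate 1 and 0.05 without replicate 2. Of the 37 calls, 15 were also made at the preset correlation, 27 with scaling, and 12, 23, 14 and 17 without arrays 1, 2, 3 and 4. Outside the deposited table, 4 higher and 3 lower members were called in every test. The number of members, 136, became 415 at thresholds of 0.8 and 0.7, 38 at 1.5 and 0.5, 55 at 1 and 0, 207 with no condition on background, 65 by loess ratios (41 shared) and 66 in the deposited table (50 shared). In the deposited table, 88 of the 136 members had values above 0 on the 4 arrays. TC291127 turned to 0.21 without array 2 (-1.82 to 0.21 over the left-out arrays). DR820223 turned to 0.10 with median centring and to 0.002 without array 1 (-0.18 to 0.002 over the left-out arrays). Calls over all probes, 4462 in the main test, numbered 10217 with median centring, 8781 with an offset of 10, 8091 with 8 arrays, 7223 with the trend, 2857, 2097, 1779 and 1764 without arrays 2, 1, 4 and 3, 2081 at the preset correlation and 0 in the deposited table. With 4 independent arrays or the replicate block, calls over all probes numbered 5941. They numbered 6419 with processed signals and 4413 with added scaling. The cause of these changes was not tested.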
